A study of Mus musculus with 8 samples.

Results

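Open chromatin was examined at the genes of a small regulator family in thymic group 2 innate lymphoid cells: *Bach1* and *Bach2*, the small Maf genes *Mafk*, *Mafg* and *Maff*, and *Nfe2l2*, which encodes NRF2. Regions were taken where a peak summit lay in or within 50 kb of the mm10 body of one of the 6 genes. The rule gave 71 regions out of 60835 in the union of the 4 peak lists, with 10 at *Bach1*, 18 at *Bach2*, 12 at *Mafk*, 12 at *Mafg*, 12 at *Maff* and 7 at *Nfe2l2*.

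BACH1 and BACH2 are transcriptional repressors with a BTB domain and a basic leucine zipper, and they bind DNA as pairs with a small Maf protein. The small Mafs MAFK, MAFG and MAFF carry a leucine zipper but no activation domain, so they act through their partner. NRF2 is an activator that competes for the same small Mafs and for the same antioxidant response elements, and BACH1 represses heme and iron genes there. In lymphocytes BACH2 is known for holding back effector programmes, among them type 2 cytokine genes.

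ATAC-seq, which reads open chromatin from insertions of the Tn5 transposase, was carried out on thymic ILC2s of C57BL/6 mice with the plck-Id1 genotype, an *Id1* transgene under the *Lck* promoter, which is active in T lineage cells. ID1 blocks E proteins, and all groups carry it. Cells stimulated with IL-7, IL-25 and IL-33 received a MIGR1 retrovirus for GFP with E47-ER, a tamoxifen-responsive form of the E protein E47, or for GFP alone, and were sorted for GFP and expanded in the same cytokines. All groups then had 4-hydroxytamoxifen, for 16 or 4 hours. The 8 samples form 4 groups of 2 (E47 at 16 h, E47 at 4 h, GFP at 16 h and GFP at 4 h), and each group is 1 peak list that the authors made from its 2 samples.

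With 1 list per group there is no spread between replicates and no test, and every comparison describes these 4 lists. The sample descriptions give the vector by replicate number, against the titles and the transduction labels that were used here. If the descriptions were right, each list would mix both vectors. Whether the 2 samples behind a list were independent cultures or animals is not in the labels. The E47 lists held 40649 regions (16 h) and 49811 (4 h) and the GFP lists 52846 (16 h) and 42665 (4 h), so list length moves with the groups, and counts at equal list length are given beside the counts of each time. Where a list has no call, the chromatin need not be closed. In such bulk data, fewer open cells and less opening per cell cannot be told apart. At gene ends, 6 of 10 ILC2 marker genes had a region in all 4 lists and 2 (*Il1rl1* and *Icos*) in some, with *Gata3* and *Rora* having none in any list within 1 kb of an end. None of 4 mast cell and basophil markers and none of 4 ILC3 markers had one in any list, nor had 4 of 6 T cell, 4 of 5 B cell, 4 of 6 myeloid and dendritic cell and 3 of 4 NK cell and ILC1 markers. *Cd3e*, *Cd4*, *Ebf1*, *Cd14*, *Flt3* and *Eomes* had one in at least 1 list.

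The bases before a gene start are shown for 5 genes, because in all 4 lists a called region covers them. The RefSeq windows (GRCm38.p6, the same assembly as mm10) of 250 bases before the annotated start were fully covered by a region in every list at *Bach1*, *Mafk*, *Mafg*, *Nfe2l2* and the second of 3 starts of *Maff*. Capitals in the first 3 sequences mark E-boxes (CANNTG, in any form). They also mark the core of the site bound by NRF2 or BACH proteins with small Mafs (TGACNNNGC). Both were searched on both strands.
Nfe2l2, chr2:75704664-75704913, minus strand: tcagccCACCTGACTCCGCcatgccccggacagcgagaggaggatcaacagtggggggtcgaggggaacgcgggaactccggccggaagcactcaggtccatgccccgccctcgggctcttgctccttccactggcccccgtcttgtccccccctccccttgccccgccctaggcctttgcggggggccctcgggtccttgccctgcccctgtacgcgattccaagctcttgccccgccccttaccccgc
Mafk, chr5:139791286-139791535, plus strand: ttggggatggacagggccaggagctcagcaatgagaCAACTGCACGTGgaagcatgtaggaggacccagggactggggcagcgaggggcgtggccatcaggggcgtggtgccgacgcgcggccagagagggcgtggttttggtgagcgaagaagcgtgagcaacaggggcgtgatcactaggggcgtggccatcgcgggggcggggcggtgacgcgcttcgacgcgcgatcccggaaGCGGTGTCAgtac
Bach1, chr16:87698704-87698953, plus strand: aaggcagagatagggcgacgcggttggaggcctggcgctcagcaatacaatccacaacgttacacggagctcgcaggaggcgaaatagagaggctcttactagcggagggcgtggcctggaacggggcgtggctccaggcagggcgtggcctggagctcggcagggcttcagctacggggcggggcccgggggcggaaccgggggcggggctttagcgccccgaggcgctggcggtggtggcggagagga
The *Nfe2l2* window held the E-box form CACCTG, which E47 is known to prefer together with CAGCTG, starting at position -244 from the annotated start. Its last 2 bases are the first 2 of a TGACNNNGC match, so the capitals run on as 1 stretch. Among windows of 21263 starts of protein-coding genes, 26.7% held CAGCTG or CACCTG on either strand and 10.4% held TGACNNNGC. The *Mafk* window held the E-boxes CAACTG and CACGTG side by side and a TGACNNNGC match on the other strand, at position -13, and the *Bach1* window held neither kind of match. E-boxes of any form were in 62.8% of windows.

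For *Mafg* and *Maff*, stretches of 30 bases close to the start show the matches nearest to it. Capitals mark E-boxes and, at *Maff*, the cAMP response element TGACGTCA.
Mafg, chr11:120633566-120633595, minus strand: tggaaccCACGTGaccaaacatCATGTGac
Maff, chr15:79347483-79347512, plus strand: tggggcggTGACGTCActgcatgactgggt
TGACGTCA was in 1.92% of the windows. Outside these stretches, TGACNNNGC matches lay at position -222 of *Mafg* and at position -112 of the first start of *Maff*, and further E-boxes lay in the windows of the *Maff* starts. None of the windows of *Bach1*, *Mafk*, *Mafg*, *Maff* or *Bach2* held CAGCTG or CACCTG, and none of the 6 genes had the AP-1 site TGANTCA, which 6.13% of windows held. A match is a description of letters and not a binding site.

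Over the 6 genes, most of the called regions were in all 4 lists. Of the 71 regions, 43 were (60.6%, with a 95% exact binomial interval of 48.2 to 72.0). The share over all regions was 48.8%, which lay within that interval. Only 2 of the 71 were called in both E47 lists and in neither GFP list, a share of 2.82% where 3.43% of all regions were. At equal list length 3 of 60 regions were, 2 of them at *Bach2* and 1 at *Mafk*. The share over all regions at that length is not given, so this count has no background. No region had a GFP call at both times without any E47 call, where 4.56% of all regions did, and 0 of 71 has an exact upper bound of 5.06%. The intervals cover counting error, and regions of 1 gene are not independent.

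**Figure D1:**
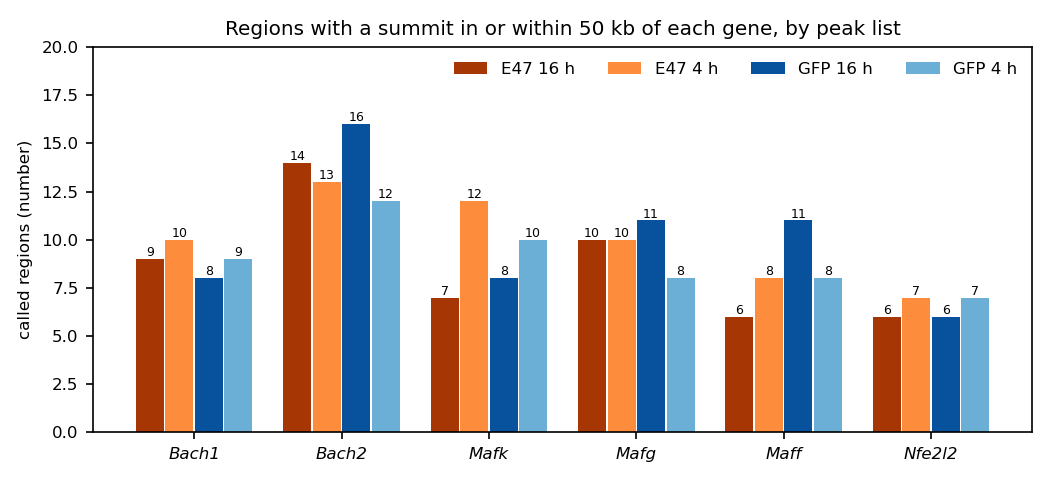
Number of called regions with a summit in or within 50 kb of each gene (vertical axis), with 1 bar for each of the 4 peak lists. *Bach2* has the most in every list (14 and 13 under E47 at 16 h and 4 h, 16 and 12 under GFP at 16 h and 4 h), and *Maff* has 6 and 8 under E47 at 16 h and 4 h against 11 and 8 under GFP at 16 h and 4 h. At equal list length GFP at 16 h has 9 at *Bach2* and 6 at *Maff*, so neither excess of GFP at 16 h remains.

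The strength of a region is given as the percentile of its −log10 p in its own list, and its fold is the authors' enrichment over local background, the highest among the summits of the region. The 43 regions in all lists reached a median percentile of 76.9 in their best list. The other 28 had a median of 20.8 and none was above the median of a list; the highest, inside *Bach1*, reached 49.6. Differences in calls at these genes were thus all among weaker regions. Over the series the median percentile in the best list also rose with the number of lists. It was 9.94, 26.16 and 39.98 for regions in 1, 2 and 3 lists, and 73.41 for regions in all 4. The split in medians is therefore not particular to these genes. The share of series regions with unequal calls that lay above the median of a list is not given. Near gene ends, at most 1 kb from either end of any protein-coding gene, 18 of 25 regions (72.0%) were in all lists, and farther away 25 of 46 (54.3%). Over the series these shares were 74.3% and 40.6%.

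**Figure D2:**
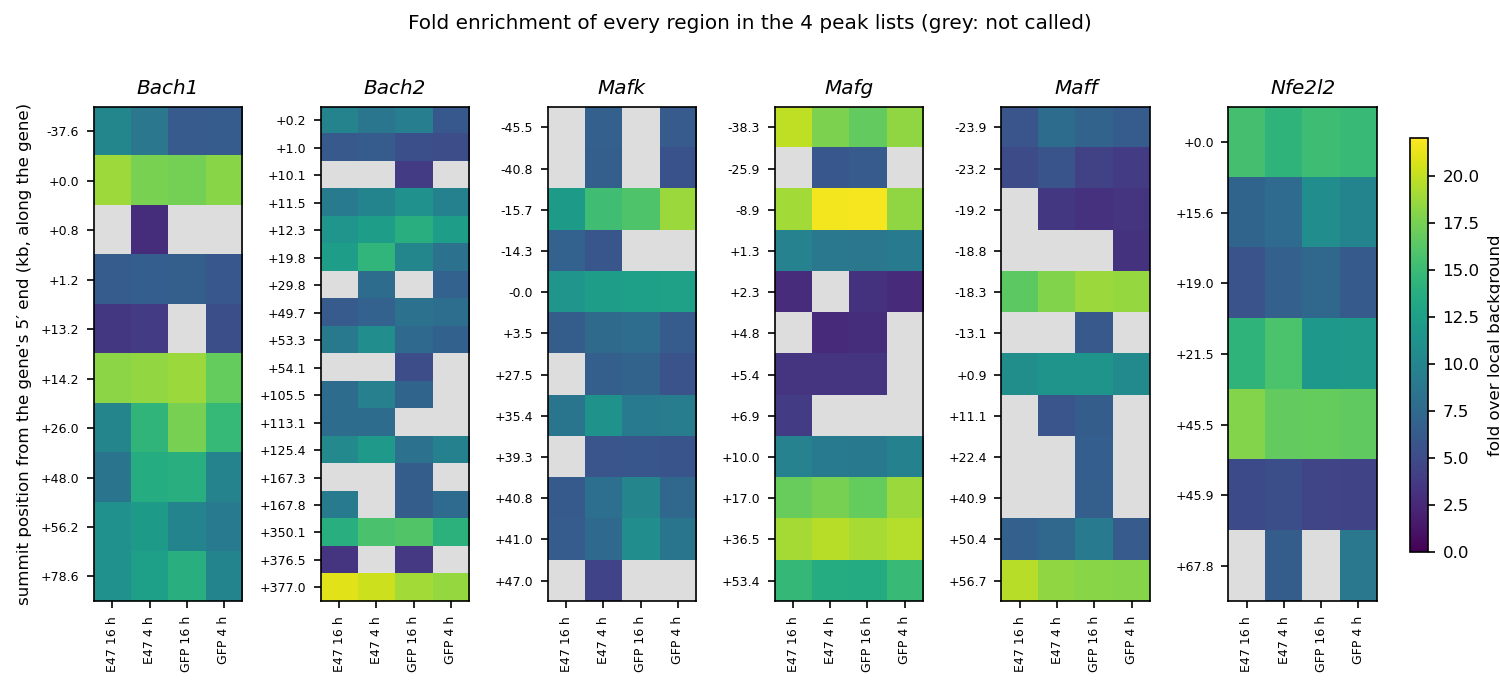
Fold enrichment of each region (colour, over local background) in the 4 peak lists (columns), with regions in rows by the position of the summit from the 5′ end of the gene in kb along the gene, and grey where a list has no call. Rows with grey cells are the 28 regions that are not in all lists, with folds up to 9.55, while rows in all lists reach 21.7.

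*Bach2*, the longest gene with 347697 bp (chromosome 4, 32238413 to 32586109), had the most regions (18) and the most with unequal calls (8). It had 14 and 13 regions under E47 at 16 h and 4 h, against 16 and 12 under GFP at 16 h and 4 h. When each list was held to its 40649 regions of highest −log10 p, GFP at 16 h had 9 and the other counts stayed the same, so the order at 16 h turned. Of the 15 regions inside the gene 10 lay in its first 55 kb, 5 lay between 100 and 170 kb, and none lay in the remaining stretch to the end of the gene. The annotated start given in the RefSeq promoter table, at 32417435, had no region in any list over its window. The 5′ end of the gene body, farther upstream, was open in all lists. Only 4.79% of 21887 protein-coding genes had as many regions as *Bach2* or more within the same distance, and the distance includes the gene body, so long genes have more.

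One of the 2 regions called only with E47 at both times lay 113.1 kb into *Bach2* (chromosome 4, 32351284 to 32351690). Its folds were 7.74 in E47 at 16 h and 7.77 in E47 at 4 h, and it was not called in GFP at 16 h or at 4 h. With percentiles of 21.1 and 23.9 under E47 at 16 h and 4 h it was a weak region in both lists. A neighbour 105.5 kb into the gene had folds of 7.81 and 9.55 under E47 at 16 h and 4 h, against 7.05 in GFP at 16 h and no call in GFP at 4 h. The next region on the other side, at 125.4 kb, was called in all lists, with 10.4 and 11.8 under E47 at 16 h and 4 h against 8.19 and 9.68 under GFP at 16 h and 4 h. In these 3 neighbouring regions E47 had the only call or the higher fold at each time.

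A further pair of *Bach2* regions had folds that did not overlap between the vectors and differed by more than 1.5 times at 4 h. The region 19.8 kb into the gene (32257710 to 32258573) had 12.3 and 14.5 under E47 at 16 h and 4 h, against 10.1 and 8.18 under GFP at 16 h and 4 h. Its percentiles were 67.4 and 76.9 under E47 at 16 h and 4 h and 45.4 and 37.3 under GFP at 16 h and 4 h. The one at 53.3 kb had 8.92 and 10.7 under E47 at 16 h and 4 h, against 7.55 and 6.82 under GFP at 16 h and 4 h. At 4 h the ratios of E47 over GFP were 1.77 and 1.58 for these regions, and at 16 h they were 1.23 and 1.18.

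The 5′ end of *Bach2* carried a pair of regions. The first, 0.2 kb into the gene, had 9.85 and 8.67 under E47 at 16 h and 4 h, against 9.42 and 6.03 under GFP at 16 h and 4 h, so only the 4 h lists were far apart. The next, 1.0 kb into the gene, had 6.14 and 6.36 under E47 at 16 h and 4 h and 5.33 and 5.17 under GFP at 16 h and 4 h. Elsewhere in the gene some regions had the higher folds in GFP. At 49.7 kb the folds were 6.34 and 6.95 under E47 at 16 h and 4 h, against 8.22 and 7.93 under GFP at 16 h and 4 h, and at 12.3 kb they were 11.4 and 12.2 under E47 at 16 h and 4 h, against 13.8 and 12.3 under GFP at 16 h and 4 h. The region at 11.5 kb overlapped, at 9.15 and 9.90 under E47 at 16 h and 4 h and 11.1 and 9.68 under GFP at 16 h and 4 h.

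**Figure D3:**
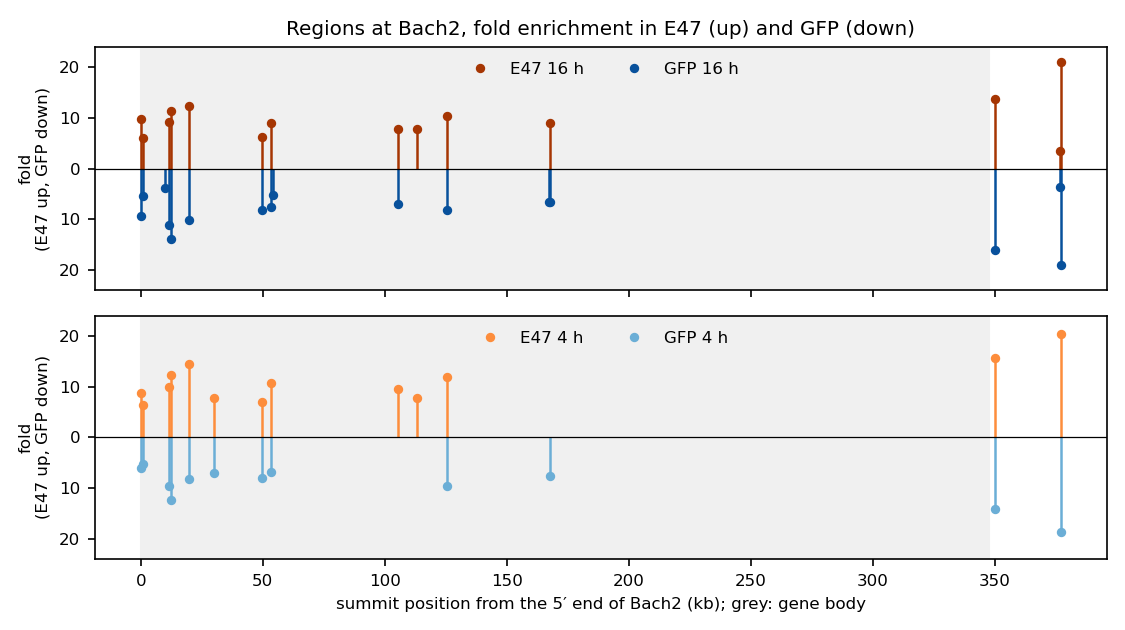
Fold enrichment of each *Bach2* region (vertical axis, E47 upwards and GFP downwards) by summit position from the 5′ end of the gene in kb (horizontal axis), at 16 h above and 4 h below, with the gene body in grey. The region at 113.1 kb has an E47 point at both times and no GFP point, and no region lies inside the gene beyond 167.8 kb.

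The remaining *Bach2* regions with unequal calls did not keep a vector over time. Regions at 10.1, 54.1 and 167.4 kb were called in GFP at 16 h alone, with folds of 3.83, 5.16 and 6.49. One at 29.8 kb was called at 4 h alone, with 7.77 in E47 and 6.93 in GFP. The region at 167.8 kb had 9.0 in E47 at 16 h, against 6.49 and 7.68 under GFP at 16 h and 4 h, and was not called in E47 at 4 h. Beyond the 3′ end of the gene, a region 2381 bp away had 13.8 and 15.7 under E47 at 16 h and 4 h and 16.0 and 14.1 under GFP at 16 h and 4 h. The last 2 lay at the end of the neighbouring gene *Casp8ap2*. The stronger had the highest fold within 50 kb of *Bach2*, with 21.0 and 20.3 under E47 at 16 h and 4 h and 18.9 and 18.6 under GFP at 16 h and 4 h. The weaker was called at 16 h alone, with 3.41 in E47 and 3.64 in GFP.

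*Bach1* (chromosome 16, 87698954 to 87733346) had no other protein-coding gene within 50 kb, and 8 of its 10 regions were in all lists. Its start was among the strongest regions of every list, with folds of 18.8 and 17.6 under E47 at 16 h and 4 h and 17.4 and 18.1 under GFP at 16 h and 4 h, at percentiles of 97.8 to 98.2. A region 14.2 kb into the gene had similar folds, with 18.2 and 18.4 under E47 at 16 h and 4 h and 18.7 and 16.8 under GFP at 16 h and 4 h. Neither separated the vectors.

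The widest gap in favour of E47 at these genes at 16 h lay 37.6 kb upstream of *Bach1* (87660942 to 87662019). There the folds were 10.1 and 8.72 under E47 at 16 h and 4 h, against 6.28 and 6.39 under GFP at 16 h and 4 h. Both E47 values were above both GFP values, and the log2 ratio of E47 over GFP was 0.68 at 16 h and 0.45 at 4 h. The region held percentiles of 59.7 and 58.8 under E47 at 16 h and 4 h and of 24.9 and 25.7 under GFP at 16 h and 4 h. Inside the gene at 26.0 kb the order was the other way at 16 h, with 10.05 in E47 against 17.5 in GFP, while the 4 h folds of 14.4 in E47 and 14.7 in GFP were close. The region 13.6 kb beyond the 3′ end changed order between the times, with 8.43 in E47 against 13.8 in GFP at 16 h and 13.6 in E47 against 9.82 in GFP at 4 h.

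Both *Bach1* regions with unequal calls lay inside the gene. One at 13.2 kb had 3.54 and 3.91 under E47 at 16 h and 4 h and 5.28 in GFP at 4 h, and was not called in GFP at 16 h. One at 0.8 kb was called in E47 at 4 h alone, with a fold of 2.84. The other 3 regions, at 1.2 kb and at 21772 and 44196 bp beyond the 3′ end, were in all lists with folds between 6.01 and 13.9.

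*Mafk* (chromosome 5, 139791536 to 139802653) held the second region that was called in both E47 lists and in neither GFP list. It lay 14.3 kb upstream of *Mafk* and 1486 bp from an end of the neighbouring gene *Ints1* (139776973 to 139777269). Its folds were 6.89 and 5.89 under E47 at 16 h and 4 h, at percentiles of 48.0 and 39.5. The start of *Mafk* itself had 11.5 and 12.3 under E47 at 16 h and 4 h against 12.4 and 12.6 under GFP at 16 h and 4 h. A region 3.5 kb into the gene had 6.45 and 7.57 under E47 at 16 h and 4 h and 7.89 and 6.36 under GFP at 16 h and 4 h.

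By the highest fold in a region, the regions around *Mafk* that both 16 h lists called were lower in E47. None of the 6 had the higher fold in E47, where 35.7% of all regions shared at 16 h did. At 4 h, 7 of 10 had, where 66.6% of all shared regions did. The median log2 ratio of E47 over GFP was -0.35 at 16 h and 0.10 at 4 h, against -0.09 and 0.09 over all shared regions. Single summits matched within 150 bp were less one-sided, with the higher fold in E47 in 6 of 20 at 16 h and 13 of 25 at 4 h. Of the 6 regions, only those at the start and 3.5 kb into the gene were nearest to *Mafk*. The others were nearest to *Ints1* or *Psmg3*. The lowest ratios at 16 h were at a pair of regions 5420 and 5686 bp from *Psmg3*. The first of the pair had 6.23 in E47 against 9.99 in GFP at 16 h and 8.04 in E47 against 7.41 in GFP at 4 h. The second had 6.41 in E47 against 10.8 in GFP at 16 h and 7.53 in E47 against 8.52 in GFP at 4 h. At the end of *Ints1*, 15.7 kb upstream of *Mafk*, both E47 folds (11.999 and 15.3 at 16 h and 4 h) were below both GFP folds (16.0 and 18.7 at 16 h and 4 h).

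The 5 other *Mafk* regions with unequal calls were all missing from E47 at 16 h. Of these, 2 upstream regions were called at 4 h alone in both vectors, at E47 folds of 6.74 and 6.66 and GFP folds of 6.32 and 5.53. Regions 27.5 and 39.3 kb downstream of the 5′ end were called in E47 at 4 h (6.69 and 5.77) and in GFP at 16 h (7.03 and 5.93) and at 4 h (5.65 and 5.67). The last, at 47045 bp, was called in E47 at 4 h alone, with a fold of 4.45 at percentile 0.50. The region at an end of *Psmg3* was in all lists with folds between 8.54 and 11.3.

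*Mafg* (chromosome 11, 120625117 to 120634955) lies among 10 other protein-coding genes, and 7 of its 12 regions were in all lists. These 7 had overlapping folds between the vectors. The region at the start annotated in the promoter table had 9.71 and 8.83 under E47 at 16 h and 4 h and 8.70 and 9.19 under GFP at 16 h and 4 h. The other 6 lay near ends of *Arhgdia*, *Anapc11*, *Pcyt2*, *Sirt7*, *Pycr1* and *Aspscr1*, with folds between 8.87 and 21.7. Median log2 ratios of E47 over GFP were 0.01 at 16 h and -0.06 at 4 h.

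The other 5 *Mafg* regions were weak, and 4 of them lay inside the gene with folds between 2.66 and 3.92. One of those, 6.9 kb from the 5′ end, was called in E47 at 16 h alone, with 3.92. Another, at 5.4 kb, had 3.28 and 3.35 under E47 at 16 h and 4 h and 3.31 in GFP at 16 h. One at 2.3 kb had 2.81 in E47 at 16 h, against 3.21 and 2.73 under GFP at 16 h and 4 h. Regions at 4.8 kb and near an end of *Notum* were called in E47 at 4 h (2.66 and 5.99) and in GFP at 16 h (2.89 and 6.28).

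*Maff* (chromosome 15, 79346621 to 79359078) had 1 broad region over the second and the third of its annotated starts. It had folds of 10.8 and 11.4 under E47 at 16 h and 4 h and 11.4 and 10.5 under GFP at 16 h and 4 h, which overlapped. Over the third start the region reached 39.6% and 31.2% of the 250 bases under E47 at 16 h and 4 h, and 100% and 18% under GFP at 16 h and 4 h. No list had a region over the window of the first start.

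Away from the starts, 3 *Maff* regions were called in GFP at 16 h alone, as many as at *Bach2*. Over the 6 genes this held for 6 of 71 regions (8.45%), where it did for 10.6% of all regions. At equal list length no region of either gene was called at 16 h by GFP and not by E47. The 3 *Maff* regions were at 13.1 kb upstream and 22.4 and 40.9 kb downstream of the 5′ end, with folds of 6.16, 6.55 and 6.66 and percentiles of 7.72, 12.6 and 10.3. Further unequal calls were at 11.1 kb, inside the gene, with 5.77 in E47 at 4 h and 6.45 in GFP at 16 h, and at a pair near *Pla2g6*. One of that pair had 3.53 in E47 at 4 h, against 3.13 and 3.27 under GFP at 16 h and 4 h, and the other had 3.23 in GFP at 4 h alone. Upstream of *Maff* at 23.2 kb, inside *Pla2g6*, both E47 folds were the higher, with 5.02 and 5.74 under E47 at 16 h and 4 h against 4.25 and 3.81 under GFP at 16 h and 4 h. At an end of *Pla2g6* the order was the other way, with 16.5 and 17.8 under E47 at 16 h and 4 h and 18.7 and 18.6 under GFP at 16 h and 4 h. The remaining *Maff* regions, at 23.9 kb upstream and 50.4 kb downstream of the 5′ end, were in all lists with folds between 5.80 and 9.01. The highest fold was at an end of *Tmem184b*, with 19.6 and 18.4 under E47 at 16 h and 4 h and 18.1 and 18.0 under GFP at 16 h and 4 h.

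*Nfe2l2* (chromosome 2, 75675513 to 75704663) had the fewest regions and the fewest unequal calls. Of its 7 regions 6 were in all lists, and the seventh was called at 4 h in both vectors, with 6.47 in E47 and 8.81 in GFP. Its start, which covers the sequence shown above, had 15.5 and 14.3 under E47 at 16 h and 4 h and 15.2 and 14.9 under GFP at 16 h and 4 h, at percentiles of 98.0 to 99.0. Calls and folds at the start did not separate the vectors.

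Inside *Nfe2l2*, neighbouring regions differed in opposite directions at both times. At 21.5 kb from the 5′ end (75682627 to 75683557) the folds were 14.3 and 15.8 under E47 at 16 h and 4 h, against 11.7 and 11.9 under GFP at 16 h and 4 h. At 15.6 kb (75688985 to 75689396) they were 7.05 and 7.72 under E47 at 16 h and 4 h, against 10.8 and 9.95 under GFP at 16 h and 4 h. The log2 ratios of E47 over GFP at 16 h and 4 h were 0.29 and 0.41 for the first and -0.62 and -0.37 for the second. Between them, at 18990 bp, the order turned, with 5.64 in E47 against 7.33 in GFP at 16 h and 6.76 in E47 against 6.23 in GFP at 4 h. Both regions at the end of *Hnrnpa3* were in all lists, and the stronger had 17.9 and 16.7 under E47 at 16 h and 4 h and 16.8 and 16.7 under GFP at 16 h and 4 h.

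The folds of regions in all 4 lists were set beside those of the series. Both E47 folds lay above both GFP folds in 11 of 43 regions (25.6%), where 21.6% of all such regions did, and both GFP folds were the higher in 8 (18.6%), where 18.2% did. *Bach2* had 5 of the 11, *Bach1*, *Maff* and *Nfe2l2* had 2 each, and *Mafk* and *Mafg* had none. Of the 8, *Mafk* had 3, *Bach2* had 2 and *Bach1*, *Maff* and *Nfe2l2* had 1 each. By sign alone, E47 had the higher fold at both times in 13 regions (30.2%; 27.4% of all such regions) and GFP in 8 (18.6%; 22.5% of all). GFP was higher at 16 h and E47 at 4 h in 15 (34.9%; 42.0% of all), and E47 was higher at 16 h and GFP at 4 h in 7 (16.3%; 8.02% of all). The lists of a vector differ in time and are not replicates.

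**Figure D4:**
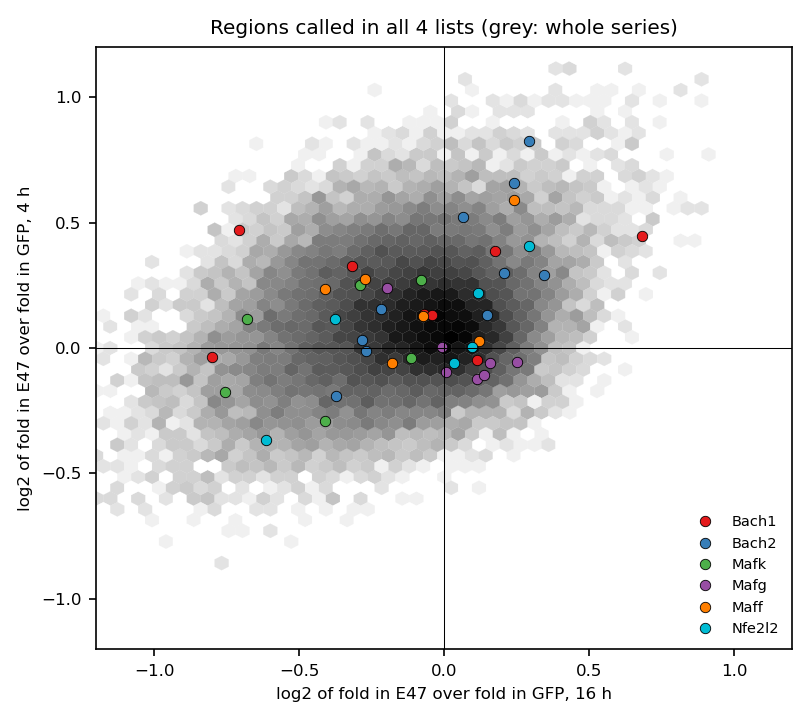
Log2 ratio of the fold in E47 over the fold in GFP at 16 h (horizontal) and 4 h (vertical) for the 43 member regions in all lists (coloured points) over the 29667 such regions of the series (grey density on a log scale, with 140 beyond the axes not drawn). The *Bach1* point farthest right is the region 37.6 kb upstream, the highest *Bach2* point is the region at 19.8 kb, and *Mafg* points lie between -0.20 and 0.25 at 16 h.

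At 16 h, 64 of the 71 regions were called in at least 1 of the lists of that time. E47 alone called 4 (6.25%, against 8.38% of all regions called at 16 h), namely 1 each at *Bach1*, *Bach2*, *Mafk* and *Mafg*. GFP alone called 12 (18.8%, against 29.6% of all regions called at 16 h). Of these 12, *Maff* had 5, *Bach2* had 3 and *Mafk* and *Mafg* had 2 each. Both shares were below those of the series, but their exact binomial intervals held the series values. The intervals were 1.73 to 15.2 for E47 alone and 10.1 to 30.5 for GFP alone. When only the 40649 regions of highest −log10 p were kept in each list, the balance at 16 h turned. Of the 53 regions then called at 16 h, E47 alone called 9 (17.0%, against 15.9% of all regions then called at 16 h). The GFP list alone called 1 (1.89%, against 16.6%). Of these 9, *Bach2* had 5, *Mafg* had 2 and *Bach1* and *Mafk* had 1 each.

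Among the 48 regions called by both 16 h lists, 22 (45.8%) had the higher fold in E47, where 35.7% of all shared regions did. The median log2 ratio of E47 over GFP was -0.03, against -0.09 for all shared regions. The fold was at least 1.5 times higher in E47 in 1 region (2.08%, against 1.28% of all shared regions), 37.6 kb upstream of *Bach1*. It was at least 1.5 times higher in GFP in 5 (10.4%, against 8.45% of all). Of these 5, *Bach1* and *Mafk* had 2 each and *Nfe2l2* had 1.

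At 4 h, 63 regions were called in at least 1 list. E47 alone called 9 (14.3%, against 22.7% of all regions called at 4 h). Of these 9, *Mafg* had 3, *Bach2* and *Mafk* had 2 each and *Bach1* and *Maff* had 1 each. GFP alone called 3 (4.76%, against 9.73% of all regions called at 4 h), with 1 each at *Bach2*, *Mafg* and *Maff*. At equal list length, E47 alone called 4 of 58 (6.90%, against 13.7% of all regions then called at 4 h). The GFP list alone called 4 (6.90%, against 13.5%). Of 51 regions called by both lists, 34 (66.7%) had the higher fold in E47, where 66.6% of all shared regions did, and the median log2 ratio was 0.12 against 0.09. The fold was at least 1.5 times higher in E47 in 3 (5.88%, against 4.41% of all shared regions). Of these 3, 2 were at *Bach2* and 1 at *Maff*. In GFP it was at least 1.5 times higher in none, against 1.36% of all.

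Over time, E47 called 4 regions at 16 h alone and 12 at 4 h alone out of 64. Of all regions in either E47 list, 5.97% and 23.9% were so called. GFP called 12 at 16 h alone and 6 at 4 h alone out of 66. Of all regions in either GFP list, 23.6% and 6.08% were so called. Of the 12 that E47 lacked at 16 h, *Mafk* had 5. Folds were higher at 16 h than at 4 h in 12 of 48 regions shared by the E47 lists, where 31.1% of all did, and in 33 of 48 shared by the GFP lists, where 73.5% of all did.

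Known target genes of these factors, and the rest of their family, were examined within the same distance. All 32 genes had a region, and 29 had one within 1 kb of a gene end in at least 1 list, the exceptions being *Nrl*, *Slc7a11* and *Txnrd1*. In all, 8 genes had a region that only the E47 lists called at both times and 10 had one that only the GFP lists called, or 9 (2.93%) and 13 (4.23%) of 307 regions, where 3.43% and 4.56% of all regions were; a region near a pair of listed genes counts for each.

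Among heme and iron genes, *Fth1*, which encodes the ferritin heavy chain, had a region inside the gene that was called only with E47. Its folds were 3.49 and 4.16 at 16 h and 4 h, at percentiles of 11.3 and 35.4. Of this list 2 of 6 genes had such a region and 1 had a GFP-only one; *Slc48a1*, a heme transporter gene, had both kinds, all of them nearer to other genes. *Hmox1*, the heme oxygenase gene and best known target of BACH1, had 7 regions, 6 of them in all lists, and no region of either kind. *Keap1*, whose product directs NRF2 to degradation, had an E47-only region inside the gene. Its folds were 3.88 and 3.79 under E47 at 16 h and 4 h, at percentiles of 13.5 and 16.2. *Keap1* also had a GFP-only region 47593 bp away, nearer to *Kri1*.

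Among 5 glutathione genes, regions of the E47-only kind were near 2 and of the GFP-only kind near 2. *Gsr*, the glutathione reductase gene, held one of each inside the gene. The first had 7.02 and 6.96 under E47 at 16 h and 4 h, at percentiles of 14.4 and 16.5. The second had 7.79 and 6.18 under GFP at 16 h and 4 h, at percentiles of 20.7 and 8.47. A region near *Gclm*, but nearer to *Dnttip2*, was E47-only, and one inside *Gclc* was GFP-only. *Gclm* and *Gclc* encode the 2 subunits of the enzyme that starts glutathione synthesis. Among quinone, thioredoxin and NADPH genes, 2 of 10 had an E47-only region (*Nqo1* and *Me1*) and 4 a GFP-only one (*Txnrd1*, *Me1*, *Tkt* and *Taldo1*). The one at *Tkt* was nearer to *Prkcd*, and a *Txnrd1* one was nearer to *Hcfc2*. *Me1*, the malic enzyme gene, had 3 GFP-only regions, of which only the one 6209 bp away was nearest to *Me1*. The strongest, 25073 bp from *Me1* and nearer to *Prss35*, had 15.02 and 13.2 under GFP at 16 h and 4 h. *Me1* also had 1 E47-only region inside the gene, with 8.78 and 8.87 under E47 at 16 h and 4 h. The region in *Nqo1*, a quinone reductase gene, had 4.04 and 3.38 under E47 at 16 h and 4 h. Of the 7 other family genes, *Nrl* had 1 E47-only region (5.88 and 5.68 under E47 at 16 h and 4 h). *Nfe2* (9.81 and 6.18 under GFP at 16 h and 4 h) and *Maf* (6.05 and 5.97 under GFP at 16 h and 4 h) had 1 GFP-only region each. At 16 h and 4 h the E47-only region had percentiles of 36.3 and 40.5 at *Me1* and 13.3 and 6.58 at *Nqo1*. That at *Nrl* had 4.24 and 6.72. The strongest GFP-only region near *Me1* had percentiles of 65.6 and 56.7 at 16 h and 4 h. The GFP-only region at *Nfe2* had 38.8 and 8.47, and that at *Maf* had 39.4 and 30.4.

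Genes with the most similar counts of regions over the 4 lists were found by the sum of absolute differences in those counts. A sum of 0 was found for *Tmem235* with *Bach1*, *Gm42166* with *Bach2*, *Dis3* with *Maff*, and *Lbr*, *Septin8* and *Tef* with *Mafg*. *Klhl2* differed from *Mafk* by 1, and 12 genes tied with *Nfe2l2* at 0. The likeness is in 4 counts only.

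The distance of 50 kb decides which regions are included. Just inside it, the farthest was 45525 bp from *Mafk*, with 6.74 in E47 at 4 h and 6.32 in GFP at 4 h. Just outside, the nearest lay 52077 bp from *Mafg*, with 16.0 and 15.3 under E47 at 16 h and 4 h and 16.2 and 16.4 under GFP at 16 h and 4 h. Of the 71 regions, 32 were nearer to another protein-coding gene, among them 10 at *Mafk*, 10 at *Maff* and 7 at *Mafg*, and nearness does not show which gene a region serves.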

How the data were processed

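Peak lists of ATAC-seq libraries from 8 samples in 4 groups were used. The mm10 build and the tools MACS2, Bowtie2, DiffBind and cutadapt are named, per the submitters' processing notes, without roles; versions were not given in the sources used here. The deposited lists, 1 per group and named as conservative sets of reproducible peaks, give for each summit a fold enrichment over local background, a ratio, and a deposited −log10 p, which grows with depth. Read depth is not given, so the precision of a call is unknown. Fold and −log10 p are the authors' values for their own list and were used to describe and rank.

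Overlapping lines of a list were merged to regions, and regions of different lists that overlapped by 1 bp or more formed union regions. Gene bodies came from a RefSeq table of GRCm38.p6 with 21887 protein-coding genes and no exons, so exons and introns were not told apart, and promoter windows from a RefSeq sequence table. All 6 genes matched by symbol. No genome was used, so sequences of distal regions are not shown. A region lies where its strongest summit lies. The 6 genes and the gene lists were chosen with earlier results of these data known.

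Named regions are those whose calls differ, plus for each gene the region at its start, the one with the highest fold and the one with the largest difference between vectors; of the pathway lists, genes with a region called by 1 vector at both times; and genes with the most similar counts. Shares have 95% exact binomial intervals. No test between groups was possible. The code was tested on simulated regions. The code ran in Python 3.11.15, with matplotlib 3.10.9, scipy 1.17.1, pandas 2.3.3 and numpy 2.4.6.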

Additional observations from a re-analysis of the deposited data

Results flagged for a closer look

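Regions called with E47 alone minus those called with GFP alone gave the balance of calls at a time. The 6 genes together had a balance of -8 at 16 h and 6 at 4 h, a difference of -14. Over the series, E47 alone called 4553 regions and GFP alone 16071 at 16 h, and 11861 and 5093 at 4 h. The balance of all regions thus turned in the same direction. The sign turned likewise at *Bach2* (-2 at 16 h and 1 at 4 h), *Mafk* (-1 at 16 h and 2 at 4 h) and *Mafg* (-1 at 16 h and 2 at 4 h), a difference of -3 for each. Median log2 ratios of the fold in E47 over GFP also had opposite signs at the times. They differed, 16 h minus 4 h, by -0.15 for the 6 genes together, -0.19 at *Bach1*, -0.46 at *Mafk*, 0.063 at *Mafg* and -0.25 at *Maff*. Over all shared regions the medians were -0.09 at 16 h and 0.09 at 4 h, also of opposite sign. With 1 list per group these differences between the times were not tested. List lengths moved with them: the E47 list was the shorter at 16 h and the longer at 4 h. At equal list length the balance of the 6 genes was 8 at 16 h and 0 at 4 h, so the difference of calls reversed to 8. Over the series at that length, E47 alone called 7285 regions and GFP alone 7607 at 16 h, and 6153 and 6074 at 4 h. None of the 3 genes kept the turn in sign: *Bach2* had 5 at 16 h and 1 at 4 h, *Mafk* had 0 at 16 h and 1 at 4 h, and *Mafg* had 2 at 16 h and 0 at 4 h.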

How the results depend on the processing

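No paired analysis was possible because each group is 1 list, and for the same reason no replicate could be left out. With summits in the gene body only there were 34 regions, 1 of them E47-only at both times and 5 GFP-only at 16 h. Within 100 kb there were 109 regions, of which E47 alone called 4 at both times, 7 at 16 h and 16 at 4 h, and GFP alone called 3 at both times, 23 at 16 h and 6 at 4 h. Of all 60835 regions, E47 alone called 3.43% at both times, 7.48% at 16 h and 19.5% at 4 h. GFP alone called 4.56% at both times, 26.4% at 16 h and 8.37% at 4 h. At equal list length there were 60 regions, of which 3 were E47-only at both times. At that length 9 were E47-only and 1 GFP-only at 16 h and 4 were E47-only at 4 h. Over all regions called at the time, these last 3 shares were 15.9%, 16.6% and 13.7%. Counting only regions above the median of the list or lists that call them, 0 were E47-only at both times, 0 E47-only and 0 GFP-only at 16 h, and 0 E47-only and 0 GFP-only at 4 h. With regions up to 200 bp apart merged, 1 was GFP-only at 4 h. Shares over all regions are not given for regions above the median or merged, so those counts have no background. Neither has the count of E47-only regions at both times at equal list length. An overlap of 50% changed no count. The share of shared regions with the higher fold in E47 ranged from 38.8% to 50.7% at 16 h and from 53.6% to 69.4% at 4 h, single summits within 150 bp included. Of 216 counts per gene (regions in each list, and those called by 1 vector at both times), 55 moved by more than 1.5 times, 35 of them with the distance. Depth is unknown and limits what a missing call means.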
